A study of Mus musculus with 38 samples.

Results

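Immediate early genes are transcribed within minutes of a stimulus such as serum, a growth factor, stress or injury, from promoters that are already open and need no new protein. Their products are mostly transcription factors: Fos and Jun proteins pair to form the AP-1 factor, and the Egr zinc finger proteins and the nuclear receptor Nr4a1 bind DNA at other sites. Stress to cells and the dissociation of a solid tissue are also known to induce them. The 10 genes described here were Fos, Fosb, Jun, Junb, Egr1, Egr2, Atf3, Nr4a1, Ier2 and Dusp1, chosen by gene name from 29411 gene names on the array, and 14 of its 40628 probes measured them.

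Messenger RNA was measured on 38 one-colour arrays of stromal vascular cells from the epididymal fat of C57BL/6J mice, a fraction that the labels also call infiltrating macrophages. Weaned mice aged 3 to 4 weeks were given a low fat diet with 10% of calories from fat (LFC, 10 arrays), a high fat, high sucrose diet with 60% of calories from fat (HFC, 10 arrays), or that high fat diet with the botanical formulation KAL-1 at 5 µg (HF5), 20 µg (HF20) or 75 µg (HF75), for which 6 arrays per dose were made. The diets without the formulation were sampled at 10 time points, days 6, 10 and 14 (D6 to D14) and weeks 0 to 18 at intervals of 3 weeks (W0 to W18), and the doses at the 6 time points from W3. The series text speaks of 3 biological replicates, but each diet had 1 array at each time point here, and although 5 of the 30 animals of a group were sacrificed every 3 weeks, the sources used here do not say how many of them an array stands for. Arrays are named by diet and time point, as in HFC W9. No single array has a replicate, so a difference between diets was set against its spread over time points, and a difference between 2 arrays has no replicate check. In tissue fractions such as these, fewer cells of a type and less RNA per cell cannot be told apart.

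The level of a gene is the log2 processed signal of its probe minus the log2 75th percentile of all spots of that array, so that 0 is the 75th percentile of the array. A gene with several probes is represented by the one of highest mean level. All 10 representing probes passed the filter on dim probes in each fit and were marked well above background on 37 or 38 arrays. Array brightness, the 75th percentile itself, was lowest on HF5 W12, at 25.8 scanner units, and highest on HFC W0, at 1983. A saturated spot gives only a lower bound, and this touched Junb on 27 arrays, Nr4a1 on 26, Egr1 on 15, Atf3 on 9, Fos on 3, Dusp1 on 2 and Ier2 on 1. Fosb, Jun and Egr2 were saturated on 0 arrays. The Atf3 spot of HFC D10 was marked as an outlier and is missing, so fits of Atf3 drop that array.

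The 10 genes had the same 4 lowest arrays, described below, while over the other 34 arrays their pairwise correlations had a median of 0.27. The sequences just before the transcription start are shown for 4 genes, 2 members of AP-1 (Fos and Jun), the nuclear receptor gene Nr4a1 and the phosphatase gene Dusp1. A link between these sequences and the levels was not tested. The 250 bases before the start come from RefSeq on the GRCm38.p6 build, which matched 8 of the 10 genes (all but Egr1 and Ier2). Fos lies at chr12:85473640-85473889 on the plus strand, Jun at chr4:95052223-95052472 on the minus strand, Nr4a1 at chr15:101266596-101266845 on the plus strand and Dusp1 at chr17:26508473-26508722 on the minus strand. Capitals mark TGACG on either strand, the short form of the cAMP response element bound by CREB and ATF factors. They also mark the pattern TGANNTCA on either strand, which holds the full element TGACGTCA and close variants.
Fos: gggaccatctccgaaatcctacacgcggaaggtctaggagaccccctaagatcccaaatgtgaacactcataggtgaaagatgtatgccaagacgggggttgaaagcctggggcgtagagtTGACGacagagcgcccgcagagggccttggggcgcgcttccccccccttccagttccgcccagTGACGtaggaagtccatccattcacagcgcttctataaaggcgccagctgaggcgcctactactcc
Jun: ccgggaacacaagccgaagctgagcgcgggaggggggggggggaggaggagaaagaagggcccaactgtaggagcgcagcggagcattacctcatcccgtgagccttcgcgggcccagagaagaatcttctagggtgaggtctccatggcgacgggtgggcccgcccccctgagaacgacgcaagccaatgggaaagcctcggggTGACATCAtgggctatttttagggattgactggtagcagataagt
Nr4a1: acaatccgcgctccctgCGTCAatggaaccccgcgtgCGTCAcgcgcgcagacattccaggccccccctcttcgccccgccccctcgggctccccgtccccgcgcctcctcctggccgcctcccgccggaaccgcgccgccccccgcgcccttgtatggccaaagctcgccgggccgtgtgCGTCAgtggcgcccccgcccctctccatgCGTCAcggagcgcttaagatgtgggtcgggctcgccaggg
Dusp1: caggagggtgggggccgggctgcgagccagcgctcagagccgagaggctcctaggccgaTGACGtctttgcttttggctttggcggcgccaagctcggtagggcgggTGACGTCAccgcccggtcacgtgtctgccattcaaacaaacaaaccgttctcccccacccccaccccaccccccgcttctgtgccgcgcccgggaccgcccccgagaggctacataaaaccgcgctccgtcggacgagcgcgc
The short site occurred before 7 of the 8 genes (Fos, Fosb, Junb, Egr2, Atf3, Nr4a1 and Dusp1; any of 5 windows for Egr2), and before 19.8% of the 27025 gene symbols in the same table. Nr4a1 held 4 short sites and Fos 2, of which that of Fos at -66 to -62 lies upstream of its TATAAA box at -33. Jun held no short site but a match to TGANNTCA at -45 to -38. TGANNTCA was found before 2 of the 8 genes (Jun and Dusp1) and 13.5% of symbols, and the full TGACGTCA before 1 (Dusp1, overlapping 2 of its 3 short sites) and 1.77%. The AP-1 site TGANTCA was found before 0 of the 8 genes and 7.82% of symbols, TATAAA before 1 (Fos) and 14.3%, the Egr site GCGGGGGCG before 2 (Fosb and Nr4a1) and 2.93%, and the CArG box, the site of serum response factor, before 1 (Egr2) and 1.62%. These matches describe letters in a short window and not binding.

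The 10 genes were high on most arrays and far lower on the same 4, which were LFC and HFC at W9 and LFC and HF75 at W12, and whose values are given in that order from here on. The mean level of the 10 genes was 0.125 on LFC W9, 0.543 on HFC W9, 0.045 on LFC W12 and 1.93 on HF75 W12, and lay between 4.14 (LFC W6) and 5.77 (LFC W18) on the other 34 arrays. For each of the 10 genes these were the 4 lowest arrays. The same was true of 1.49% of the 24490 probes present on all arrays and marked above background on no less than a share of 0.5 of them, and another 3.97% of those probes had their 4 highest levels there. The arrays were picked out by these genes, so the counts describe them and carry no test. The titles of 3 of the 4 arrays also differ in form from the rest: those of LFC and HFC at W9 hold a further letter W before the E found in the others, and that of LFC W12 gives no week, which another label supplies. The labels do not explain these codes, and HF75 W12 has the usual form. The source name and tissue label are the same as on the other arrays, and whether the codes mark another preparation was not tested.

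**Figure D1:**
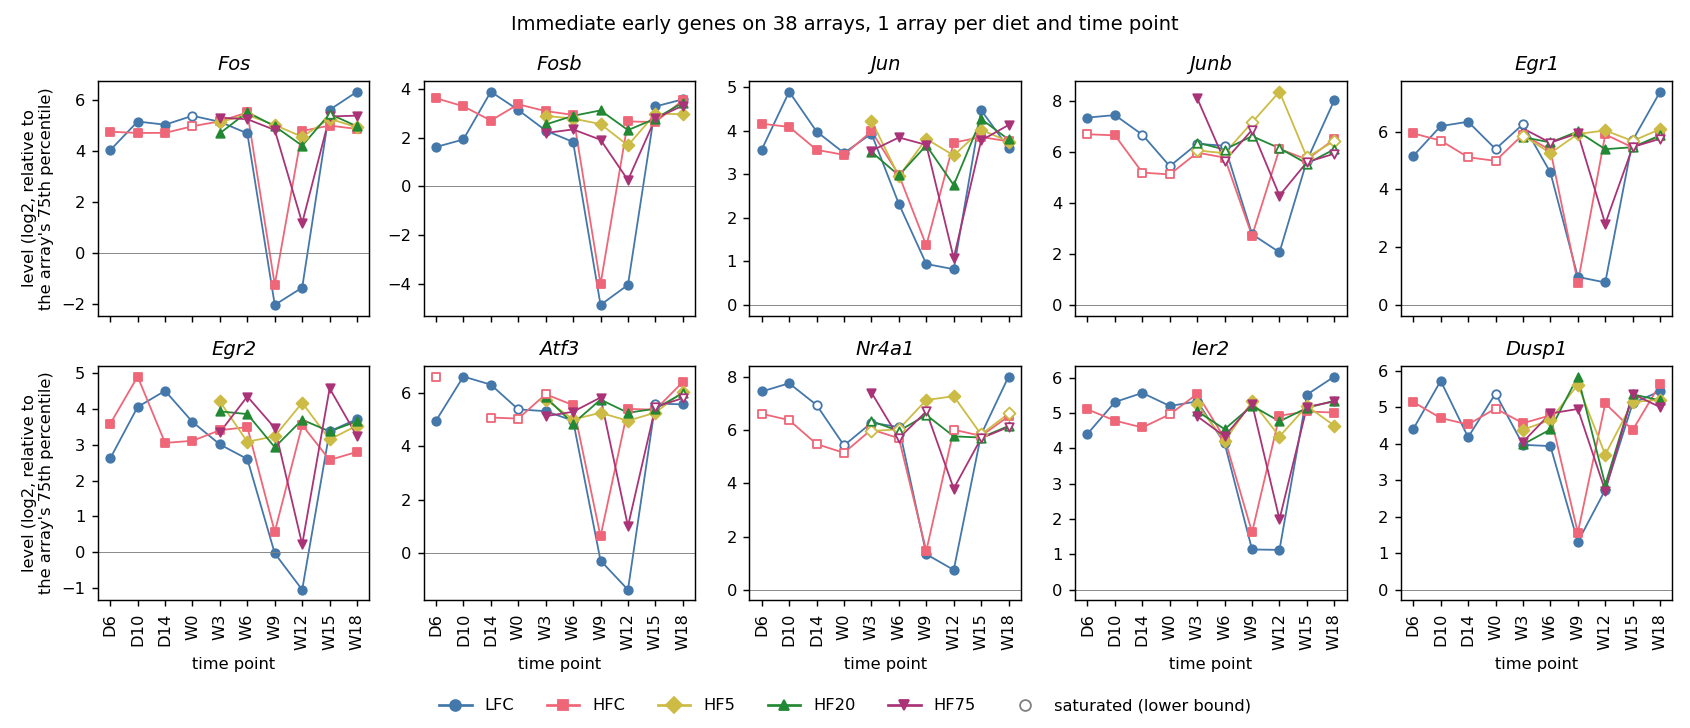
Level of each gene (y axis, log2 relative to the 75th percentile of the array) at each time point (x axis) in the 5 diets, with 1 point per array and open points where the spot was saturated. In every panel the points of LFC and HFC at W9 and of LFC and HF75 at W12 lie below all others, for Fos at -2.04, -1.24, -1.36 and 1.18 against 4.02 or more elsewhere.

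Fos, whose protein pairs with Jun proteins in AP-1, had the levels 4.02, 5.15, 5.02, 5.37 (saturated), 5.14, 4.68, -2.04, -1.36, 5.61 and 6.32 on the LFC arrays in order of time. On the HFC arrays Fos stood at 4.75, 4.70, 4.70, 4.96 (saturated), 5.16, 5.50, -1.24, 4.78, 4.99 and 4.86. In LFC the low stretch thus spanned W9 and W12, while in HFC W9 alone was low and the W12 array was back within the range of the earlier ones. From W3 to W18, Fos was at 5.13, 5.41, 5.01, 4.55, 5.26 and 4.92 in HF5, and at 4.69, 5.52, 4.96, 4.20, 5.45 (saturated) and 4.96 in HF20. In HF75 it was at 5.30, 5.24, 4.82, 1.18, 5.35 and 5.38, so that of the 18 dose arrays HF75 W12 stood apart and the others did not.

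Fosb, which encodes a close relative of Fos, followed the same course. On the 4 low arrays it was at -4.85, -4.00, -4.03 and 0.26, against 1.61 to 3.88 on the other 34 arrays. The next lowest arrays were LFC D6 at 1.61, HF5 W12 at 1.68 and LFC W6 at 1.82. Jun, the usual partner of Fos, stood at 0.94, 1.37, 0.82 and 1.08 on the 4 low arrays and at 2.32 to 4.90 elsewhere. Unlike Fosb, Jun was as low on HF75 W12 as on the other 3 arrays. Junb, an AP-1 member with weaker activity than Jun, was at 2.77, 2.70, 2.06 and 4.28 on these 4 arrays and at 5.11 or more elsewhere, where 27 of 34 values were saturated.

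Egr1, a zinc finger factor induced through serum response factor, was at 0.97, 0.77, 0.78 and 2.81 on the 4 low arrays, and between 4.58 (LFC W6) and 7.38 (LFC W18) elsewhere. Egr2, its relative with a role in myeloid cells and myelination, was at -0.02, 0.57, -1.04 and 0.22 there and at 2.57 (HFC W15) to 4.89 (HFC D10) elsewhere. Nr4a1, an orphan nuclear receptor, was at 1.34, 1.46, 0.74 and 3.80 there, and its other 34 values ran from 5.14, with 26 of them saturated. Atf3, a stress-induced repressor of the ATF family, was at -0.29, 0.62, -1.39 and 1.001 there and at 4.86 (HF20 W6) to 6.62 (LFC D10) on the other 33 arrays that measured it. Its step of 3.86 between the fourth and the fifth lowest array was wider than that of any other of the 10 genes.

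Ier2, which encodes a nuclear protein of the immediate early class, was at 1.14, 1.62, 1.13 and 1.99 on the low arrays and at 4.14 to 6.03 elsewhere. Dusp1, a phosphatase that switches off p38 and JNK kinases, was at 1.31, 1.56, 2.73 and 2.71 there. It was the exception in degree, since HF20 W12 followed at 2.88 and HF5 W12 at 3.70, so that the step to the fifth lowest array was 0.14 log2. At W12, Dusp1 was at 5.10 on HFC. The second probes of Dusp1, Junb and Ier2 had the same 4 lowest arrays and correlated with the representing probe at r = 0.984, 0.957 and 0.951 over 37 or 38 arrays. Another Ier2 probe was far dimmer, with a median difference of -7.19 log2, and did not have the same 4 lowest arrays.

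At W12, 2 of the 5 arrays were low and 3 were not. All 5 were scanned on the same day, and LFC W12 shared a slide with HFC W12. LFC W9 and HFC W9 were scanned on another day than the 3 dose arrays of W9, and those 5 arrays lie on 5 slides. At W9, scan day and the presence of the formulation therefore cannot be told apart. The 4 low arrays were among the brighter ones, with a 75th percentile of 1465, 1588, 1537 and 1294 scanner units. On HF75 W12 and HFC W12, 6257 and 4850 of 43803 spots were marked as outliers and left out.

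Saturation flattened the highest genes on bright arrays. The 27 saturated Junb values ran from 5.11 on HFC W0, the brightest array, to 7.14 on HF5 W9, while the highest Junb level, 8.35, was an unsaturated one on the dimmest array, HF5 W12. Nr4a1 ran from 5.14 on HFC W0 to 6.94 among its saturated values and reached 8.01, unsaturated, on LFC W18. A saturated signal has reached the limit of the scanner, so its level is a lower bound that falls as array brightness rises, and a difference between 2 saturated spots is not read as a difference between genes. The low values of these genes were not saturated.

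**Figure D2:**
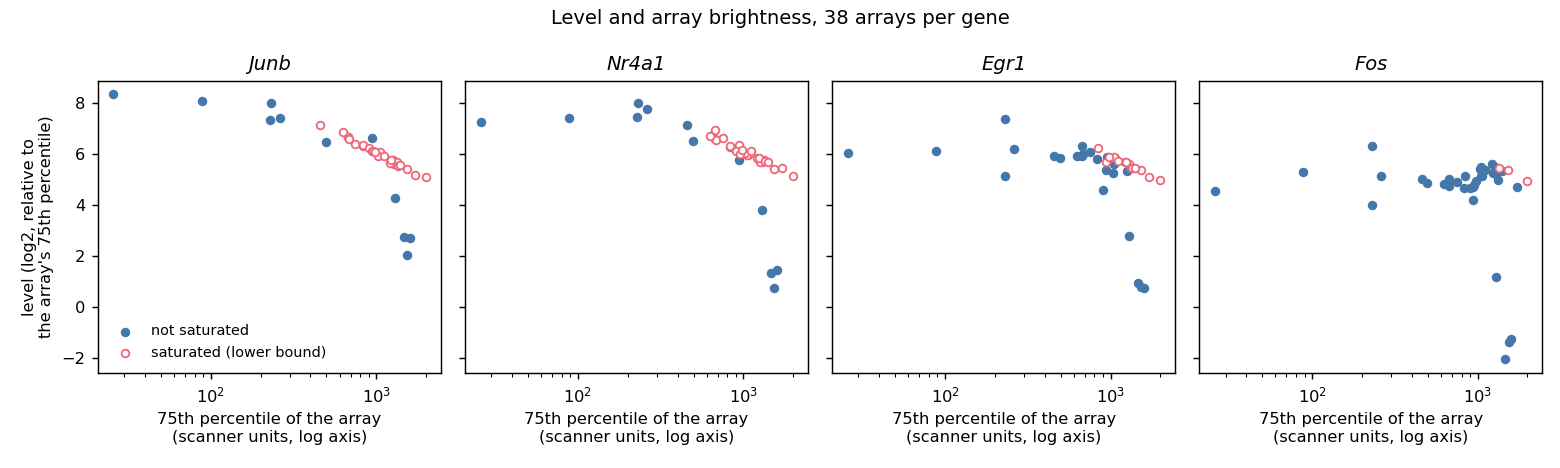
Level (y axis, log2 relative to the 75th percentile of the array) against array brightness (x axis, the 75th percentile in scanner units on a log axis) for Junb, Nr4a1, Egr1 and Fos, with 1 point per array, open where saturated. The open points of Junb and Nr4a1 descend along a line as brightness rises, to 5.11 and 5.14 on the brightest array, while the 4 low arrays lie below that line and are not saturated.

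The first comparison asked whether the high fat diet changed these genes. In limma, with time point as a block, 0 of the 10 genes passed an adjusted p of 0.05 for HFC minus LFC over the 10 time points, as did 0 of 31027 probes (0%). At an unadjusted p below 0.05 the counts were 0 of 10 genes and 2819 probes (9.09%). The median difference of the 10 genes was 0.30 log2, beside 0.0063 over all probes tested, and 8 of 10 were higher in HFC. The fitted differences ran from -0.16 (SE 0.45) for Junb to 1.12 (SE 0.62) for Fosb, whose adjusted p of 0.554 was the smallest among the 10. Atf3 followed at 1.07 (SE 0.68, limma adjusted p 0.582), or 2.28 with saturated spots left out. With array brightness as a covariate 0 genes and 0 probes passed, but 5 of the 10 genes had an unadjusted p below 0.05, beside 6.18% of probes, and all 10 were higher in HFC with a median of 1.16, beside 0.070 over all probes. W12 carried much of both estimates: without it Fosb was at 0.50 and Atf3 at 0.35, the median of the 10 genes was -0.05, and Fos, Egr1 and Ier2 turned to -0.10, -0.33 and -0.19. Without W9 and W12 the median was -0.14.

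At W12 all 10 genes were at least 2-fold higher on the HFC array than on the LFC array, where 39.0% of 33464 probes were. Fos differed by 6.14 log2 (4.78 against -1.36), Fosb by 6.69 and Atf3 by 6.80, or 70.5-fold, 103-fold and 111-fold. Egr1 was 34.9-fold, Egr2 23.9-fold, Ier2 13.9-fold, Jun 7.50-fold and Dusp1 5.15-fold higher. Junb was at least 16.5-fold and Nr4a1 at least 38.6-fold higher, since their HFC spots were saturated. The median of the 10 genes, 4.85, stood beside a median of 0.51 over all probes of the pair.

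At W9, where both arrays were low, the differences between HFC and LFC ran from -0.20 for Egr1 to 0.91 for Atf3 and 0 of the 10 genes were 2-fold apart, where 6.73% of probes were 2-fold higher and 6.96% 2-fold lower. Other time points gave mixed signs. At D6, Fosb (1.999 log2) and Atf3 (1.64, a lower bound) were at least 2-fold higher in HFC, where 15.9% of probes were, and 0 were 2-fold lower (12.5% of probes). At D10, Fosb was higher by 1.36, where 20.7% of probes were at least 2-fold higher, and Dusp1 (-1.02) and Nr4a1 (-1.39) were 2-fold lower or more, where 23.7% were. The HFC spot of Nr4a1 was saturated, so its difference may be smaller, and after quantile normalisation 0 genes were 2-fold lower (20.0% of probes). At D14, 6 of 10 genes were at least 2-fold lower in HFC, where 9.55% of probes were, but only for Fosb (-1.18) and Egr2 (-1.45) were both spots free of saturation, and 0 were 2-fold higher (12.8% of probes). The count of lower genes was 2 after quantile normalisation (11.4% of probes) and 1 with normexp and quantile (2.05%). At W6, Fosb alone was at least 2-fold higher by 1.11 (10.2% of probes) and 0 genes were 2-fold lower (13.2%). At W18, Fos (-1.46), Junb (-1.53), Egr1 (-1.54), Nr4a1 (-1.50) and Ier2 (-1.02) were at least 2-fold lower in HFC, with no saturated spot, where 13.1% of probes were, and 0 were 2-fold higher (21.4%). After quantile normalisation that count was 0 (12.8% of probes). With normexp and a 75th percentile shift, 3 genes were at least 2-fold higher (5.78% of probes) and 0 were 2-fold lower (40.9%). At W0, W3 and W15, 0 of 10 genes were 2-fold apart, where 10.2%, 10.2% and 11.1% of probes were at least 2-fold higher and 5.44%, 9.46% and 8.89% at least 2-fold lower.

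**Figure D3:**
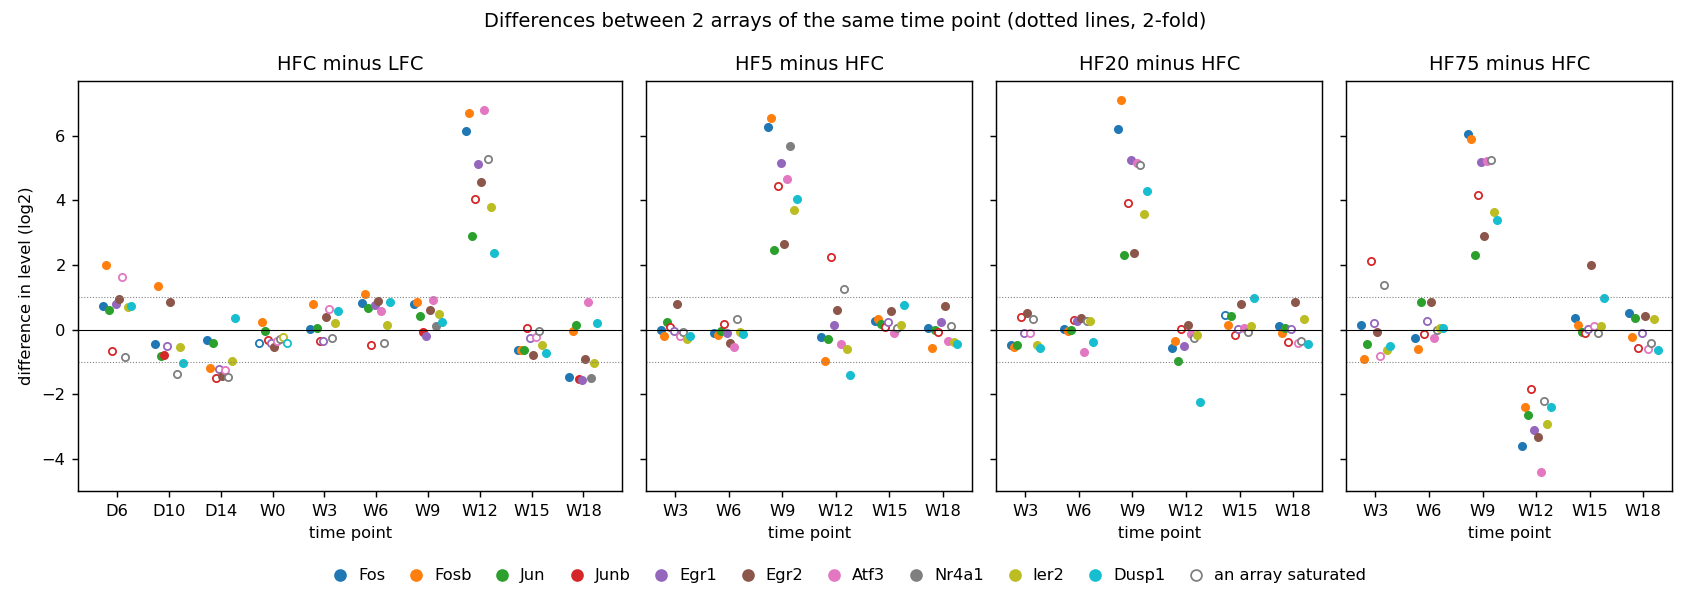
Difference in level (y axis, log2) between 2 arrays of the same time point (x axis) for each of the 10 genes, in 4 panels (HFC minus LFC, and HF5, HF20 and HF75 minus HFC), open where either spot was saturated, with dotted lines at 2-fold. The 10 points lie above the upper dotted line for HFC minus LFC at W12 and for each dose minus HFC at W9, and below the lower one for HF75 minus HFC at W12.

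With weeks counted from day 14, as in methods written for the liver arrays of the same feeding experiment, D14 and W0 fall on the same elapsed day and give the nearest view of how far separate arrays of a diet differ. In LFC the level on W0 minus that on D14, among genes with no saturated spot, was -0.75 for Fosb, -0.49 for Jun, -0.86 for Egr2 and -0.37 for Ier2. Dusp1 differed by at least 1.20, since its W0 spot was saturated. In HFC the difference was 0.66 for Fosb, -0.12 for Jun and 0.057 for Egr2, the 3 genes with no saturated spot. Junb and Nr4a1 in LFC were saturated on both arrays, so their difference is not known. The differences of all 10 genes between HFC and LFC at W12, between each dose and HFC at W9 and between HF75 and HFC at W12 were larger in size than any of these values, of which that of Dusp1 in LFC is a lower bound. Each of those pairs holds a low array, picked out by these same genes, so the comparison describes the pairs and carries no test.

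The change of HFC minus LFC with time was also tested. In limma, 0 of the 10 genes and 0 of 31027 probes (0%) passed, with slopes of 0.020 (Egr2) to 0.099 (Atf3) log2 per week and 1357 probes (4.37%) but 0 of the 10 genes at an unadjusted p below 0.05. Within LFC the slopes of the 10 genes ran from -0.14 (Atf3, SE 0.11) to -0.027 (Dusp1, SE 0.060) log2 per week, and within HFC from -0.065 (Egr2, SE 0.045) to -0.0040 (Dusp1, SE 0.050), with 0 genes and 0 probes (0%) called in either. At an unadjusted p below 0.05 there were 1108 of 28466 probes (3.89%) in LFC and 2430 of 30873 (7.87%) in HFC, and 0 of the 10 genes in both.

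Differences between time points of any shape were tested with an F-test in limma. Over LFC and HFC, 1 of the 10 genes (Fosb, adjusted p 0.0499) passed, beside 4.53% of 31015 probes. Dusp1 and Fos followed at adjusted p 0.0507 and 0.0559. At an unadjusted p below 0.05 there were 9 of 10 genes, beside 34.5% of probes. The count depended on the low arrays: without W12, 10 of 10 genes passed, beside 23.1% of probes, and without W9, 0 of 10, beside 0.106%. Without the 4 low arrays, 0 of 10 passed, beside 0.882%. Over weeks 3 to 18 and all 5 diets, 3 of 10 genes passed (Jun at adjusted p 0.0334, Fosb at 0.0448 and Fos at 0.0464), beside 40.8% of 33709 probes, a lower share than over all probes. At an unadjusted p below 0.05 there were 5 of 10, beside 53.3%. Without W9 the count was 6 of 10, beside 35.6%, and without the 4 low arrays it was 5 of 10, beside 46.4%.

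KAL-1 was then set against HFC over weeks 3 to 18. In limma, 0 of the 10 genes and 0 of 33709 probes (0%) passed for HF5, HF20, HF75 or the mean of the doses minus HFC, and 0 of the 10 genes had an unadjusted p below 0.05, where 4.8%, 1.59%, 2.02% and 1.82% of probes did. HFC minus LFC in the same fit also called 0 genes and 0 probes (0%), with 1103 probes (3.27%) and 0 of the 10 genes at an unadjusted p below 0.05. All 10 genes were higher in the mean of the doses, by 0.23 (Jun, SE 0.38) to 0.91 (Nr4a1, SE 0.73), with a median of 0.72 beside 0.013 over all probes. Dose by dose, HF5 had a median of 0.83, HF20 of 0.75 and HF75 of 0.37, and these comparisons share the HFC arrays. The sign rested on W9, where the HFC array was low: without W9 the median of the 10 genes turned to -0.21, and with scan day in place of time point as the block it was -0.18.

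At W9 each dose array stood far above the HFC array for all 10 genes. For HF5, HF20 and HF75, all 10 genes were at least 2-fold higher, where 26.1%, 26.0% and 23.7% of probes were. Fos was higher by 6.26, 6.21 and 6.06 log2, Fosb by 6.55, 7.11 and 5.91, and Egr1 by 5.15, 5.24 and 5.17. Atf3 differed by 4.64, 5.14 and 5.22, Ier2 by 3.70, 3.58 and 3.64, and Dusp1 by 4.05, 4.28 and 3.39. The smallest differences were those of Jun (2.45, 2.30 and 2.31) and Egr2 (2.66, 2.36 and 2.89). The 3 doses gave like values for each gene, and all 3 are set against the same HFC array, which lay as low as LFC W9.

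At W12 the doses parted. HF75 was at least 2-fold below HFC for all 10 genes, where 16.4% of probes were, with Atf3 lower by 21.2-fold, Fos by 12.2-fold, Egr2 by 9.98-fold, Egr1 by 8.53-fold, Ier2 by 7.62-fold, Jun by 6.28-fold, Fosb by 5.28-fold and Dusp1 by 5.24-fold. Nr4a1 was at least 4.63-fold and Junb at least 3.55-fold lower. HF20 was at least 2-fold lower for Dusp1 alone (-2.22), where 25.0% of probes were lower. HF5 was lower for Dusp1 (-1.40; 15.7% of probes) and higher for Junb (2.24) and Nr4a1 (1.26; 29.0%), on the dimmest array of the series. The last 2 differences may be smaller, since the HFC spots were saturated. The count of higher genes was 0 under each of the 3 other scalings. The share of probes higher was 24.4% with quantile, 62.3% with normexp and a 75th percentile shift and 11.8% with normexp and quantile. With normexp and a 75th percentile shift, 9 of the 10 genes on HF5 W12 and 4 on HF20 W12 were at least 2-fold below HFC. With 1 array per diet, the difference between the doses at W12 was not tested. At W3, W6, W15 and W18, the 3 doses together held 3 further differences of 2-fold or more: on the dim array HF75 W3, Junb (2.13) and Nr4a1 (1.39) were higher, against saturated HFC spots and where 25.2% of probes were, and on HF75 W15 Egr2 was higher by 1.99, where 6.06% were. At W3 the differences of Junb and Nr4a1 may thus be smaller. After quantile normalisation 0 genes were 2-fold higher (19.6% of probes) and 5 lower (25.0%) on HF75.

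Other genes of the early response behaved alike. Of 41 related genes, 26 had the same 4 lowest arrays, beside the 1.49% of probes given above. The mean level of the list was between -0.94 and 0.52 on the 4 arrays and between 1.77 and 3.31 on the others. Cxcl1, a neutrophil chemokine, was at -3.71, -2.24, -4.45 and -0.18 on the low arrays and at 1.41 to 4.69 elsewhere. Socs3, an inhibitor of cytokine signalling, was at 0.23, 1.79, 0.46 and 2.32 there and at 4.97 to 7.09 elsewhere. Il6, an inflammatory cytokine, was at -5.41, -3.80 and -5.44 on the first 3, but its 1.13 on HF75 W12 was within its range on the other arrays, 0.99 to 5.601. Ptgs2, the inducible cyclooxygenase, was at -6.58, -4.73, -6.18 and -3.63 there and at -2.79 to 2.15 elsewhere. At W12, 39 of 41 were at least 2-fold higher on HFC than on LFC, where 39.0% of probes were. Of the 40 measured on both arrays, 35 were at least 2-fold lower on HF75 than on HFC, where 16.4% of probes were. At W9, 38, 39 and 40 of 41 were at least 2-fold higher on HF5, HF20 and HF75 than on HFC, where 26.1%, 26.0% and 23.7% of probes were. Over all time points limma called 0 of 40 for HFC minus LFC (median 0.28) and for each dose comparison, 1 of 40 for differences between time points over LFC and HFC (4.53% of probes), and 11 of 40 for differences between weeks 3 to 18 (40.8%).

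Most of the kinases and factors that induce these genes did not share the pattern. Of 20 upstream regulators, among them Elk1, Creb1 and the mitogen-activated kinases, 1 had its 4 lowest levels on these arrays, beside 1.49% of probes. That was Srf, which encodes serum response factor, at 1.36, 1.62, 1.20 and 1.89 against 2.15 to 3.72 elsewhere. Rps6ka3 had its 4 highest levels there, at 0.71, 1.08, 0.36 and 0.71 against -1.88 to 0.27. Elk1 was dim, well above background on only 9 arrays, so a drop could hardly show. Some of the 20 regulators had no value on HF75 W12 and could not have that array among their 4 lowest. The mean level of the upstream list was between -0.05 and 0.64 on the 4 arrays, within its range of -0.31 to 0.79 on the others. Limma called 0 of 19 for HFC minus LFC (median 0.02) and 9 of 20 for differences between weeks 3 to 18, near the 40.8% of all probes. Of 11 heat shock genes, 2 had their 4 lowest levels on the 4 arrays, beside 1.49% of probes. Hspa1a, the inducible Hsp70, was at 0.06, 0.07, 0.19 and 2.87 on the low arrays and at 4.94 to 7.99 elsewhere, and Dnajb1, its co-chaperone, was at 3.59, 3.21, 3.73 and 3.87 against 3.96 to 6.74. Hsp90ab1 was at 4.32, 4.56, 4.43 and 3.85 there, inside its range of 3.34 to 6.19. Hspb1 was at 2.80, 2.72, 2.88 and 3.30, also inside its range of 1.42 to 6.76. None of the other genes of the list had its 4 lowest levels there.

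Cell type transcripts moved on the same arrays. The 10 adipocyte markers had a mean level of 5.36, 5.28, 5.05 and 5.42 on the low arrays, the 4 highest of the 38, against -0.595 to 4.33 elsewhere. These 4 values are lower bounds, since 33 of 40 adipocyte marker spots on the 4 arrays were saturated, against 0 of the 10 immediate early genes. Leptin was at 4.88, 5.01, 2.19 and 3.86 there and at -6.71 to -1.57 elsewhere. Adipoq, which encodes adiponectin, was well above background on all 38 arrays, although adipocytes are not stromal vascular cells. The 10 macrophage markers were between 0.80 and 1.94 on the 4 arrays, inside their range of -0.595 to 2.82 elsewhere, and so were the stromal progenitor, endothelial, mesothelial, T cell, B cell and neutrophil markers. The markers of epididymis, skeletal muscle and red cells on the 4 arrays also lay within their range elsewhere. The part that adipocyte RNA has in the levels of the immediate early genes was not tested. On HF5 W12, the dimmest array, and LFC D6 the adipocyte markers stood at 4.18 and 4.33, the highest values elsewhere. The mean of the 10 genes was 4.85 and 4.55 on them. Leptin was no higher than -1.57 on these arrays. Of the 10 adipocyte markers, 5 had their 4 highest levels on the 4 low arrays. The other markers did not, and Fabp4 and Cfd reached 10.3 and 8.07 elsewhere, although saturated values on the low arrays are lower bounds. A link between adipocyte transcripts and the 10 genes was not tested.

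**Figure D4:**
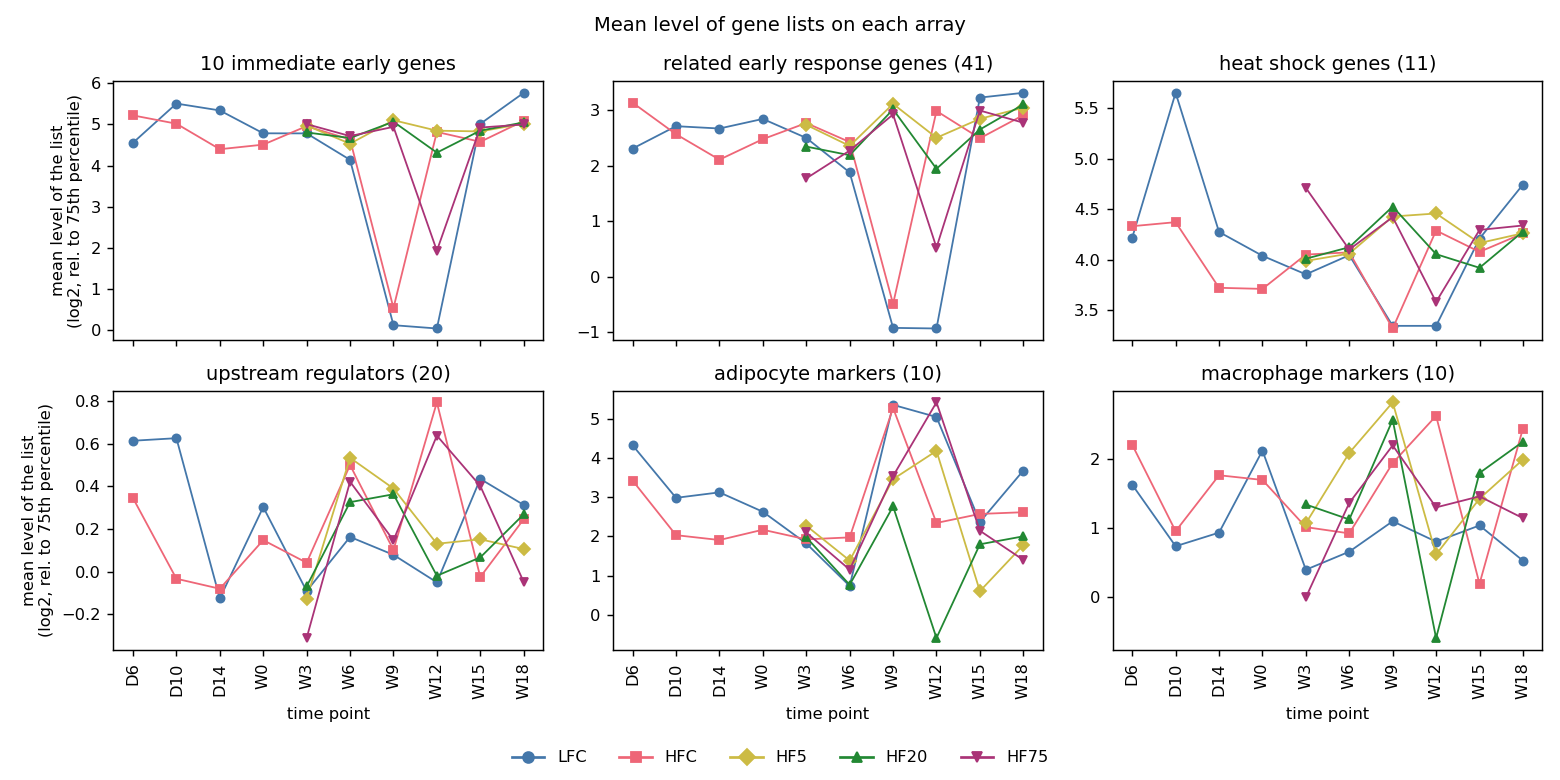
Mean level (y axis, log2 relative to the 75th percentile) of 6 gene lists on each array by time point (x axis) and diet, with the number of genes measured in each panel title. LFC and HFC at W9 and LFC and HF75 at W12 are the lowest points for the immediate early (0.045 to 1.93), related early response and heat shock lists and the highest for the adipocyte markers (5.05 to 5.42).

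The genes most like the mean of the 10 over the 38 arrays were found by Pearson correlation among 18306 other genes. They were Socs3 (r = 0.97), Zfp36 (0.97), Hspa1a (0.95), Csrnp1 (0.95), Ier3 (0.94), Ccn1 (0.94), Ier5 (0.93), Fam71a (0.92), Btg2 (0.92) and Plk3 (0.91). All but Fam71a belong to the related or heat shock lists, Ccn1 under its older name Cyr61. These values rest on the 4 low arrays: over the other 34, r was 0.75 for Zfp36, 0.70 for Btg2, 0.68 for Ier5, 0.62 for Socs3 and 0.24 for Csrnp1. After the mean of each time point was removed, Hspa1a (0.98), Socs3 and Zfp36 (both 0.97) led. W9 and W12 each hold low and other arrays, so this step keeps the gap between them and these values include it. Without that step, r for Hspa1a over the other 34 arrays was 0.62. The genes of lowest r were Amy2-ps1, Lactb2, Gnpat, Cdkn2b and Opn3 (-0.91 to -0.89), with -0.32 (Cdkn2b) to 0.16 (Opn3) over the other 34 arrays.

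Among the 10 genes themselves, the 45 pairwise correlations over the 38 arrays ran from 0.61 (Junb with Dusp1) to 0.97 (Junb with Nr4a1), with a median of 0.86. Over the 34 other arrays they ran from -0.33 to 0.95 with a median of 0.27. Junb and Nr4a1 remained the closest pair at 0.95, where both were mostly saturated and shared the brightness of the array. Egr1 correlated with Nr4a1 at 0.66 and with Ier2 at 0.65 and Jun with Ier2 at 0.62, and Fosb with Junb was the most opposed (-0.33). These correlations describe arrays that share diets and scan days, and have no test.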

How the data were processed

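Total RNA of each sample was labelled with Cy3 and hybridised to 1 array. Per the file headers, the deposited scanner files hold intensity values made by Agilent Feature Extraction (version 9.1 in the submitters' processing notes, a later one in the headers): a processed signal after background subtraction on each array, with no step between arrays, and mean and background signals as read. The deposited series table holds only the authors' log2 ratios to LFC and was not used. Outlier spots were left out of the 43803 non-control spots, levels were centred on each array's 75th percentile and replicate spots were averaged. Saturated spots were kept at their value.

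Limma 3.58.1 (R 4.3.3) was fitted to probes that at least 1 diet showed well above background on a share of 0.5 or more of its arrays, with Benjamini-Hochberg adjustment over all probes and a threshold of 0.05. The fits were tested on simulated data, where 86% of 50 probes changed by 2 log2 were called for HFC minus LFC over 10 time points among 25793 probes. Of 50 probes changed by 1 log2, 34% were called. The simulated noise was independent between arrays, with no time effects, saturation or low arrays, so these shares need not hold for the 10 genes. Time point was a block, since arrays of a time point pair the diets. Single pairs of arrays were compared at 2-fold over probes well above background on either array. Source names gave the diets and doses. For 4 arrays, the W15 and W18 arrays of HF5 and HF20, another label gives the dose of the other group. All 10 genes were named by rule, and the genes most like them by Pearson correlation over genes marked above background on no less than a share of 0.5 of the arrays. From other lists at most 4 genes were named, after their values were seen. The members and lists were chosen with earlier results of these data known. Of the probes, 69.3% matched a RefSeq accession. The highest correlation between 2 arrays was 0.980, and none was taken as a duplicate. The p-values of the diet and dose comparisons set a difference against its spread over time points. In the F-tests, differences between time points were set against the spread between arrays of a time point, after diet. The slopes within a diet were set against the scatter of its arrays about a line. The number of arrays limits the precision.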

Additional observations from a re-analysis of the deposited data

Results flagged for a closer look

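Of 55 sets of levels (each of the 10 genes and their mean, in each of 5 diets), 18 held an array whose gap to its nearest neighbour took a larger share of the range than Dixon's critical value allows. Chance would give about 2.75 of 55, and the 10 genes are not independent. In HFC the array was W9 in 10 sets, at -1.24 for Fos, -4.00 for Fosb, 1.37 for Jun, 2.70 for Junb, 0.77 for Egr1, 0.62 for Atf3, 1.62 for Ier2, 1.46 for Nr4a1, 1.56 for Dusp1 and 0.54 for the mean of the 10 genes. Egr2 was not among them, because its HFC D10 level of 4.89 widened the range. In HF75 it was W12 in 7 sets, at 1.18 for Fos, 1.08 for Jun, 2.81 for Egr1, 0.22 for Egr2, 1.001 for Atf3, 1.99 for Ier2 and 1.93 for the mean. In HF5 the Fosb level of 1.68 on W12, the dimmest array, stood below a next value of 2.55. In LFC, where both W9 and W12 were low, the gap to the nearest array was too small for either to stand out, and HF20 had none.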

How the results depend on the processing

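For the diet and dose comparisons and the slopes, 0 of the 10 genes passed in 162 alternative fits, and any probe passed in 1 of them: with normexp and a 75th percentile shift 5311 probes differed between HFC and LFC over 10 time points, where that scaling moved the median of all probes to -0.29 log2. The methods' t-test called 0 probes (1103 unadjusted, 303 of them at least 2-fold). Without the replicate block there were 0 calls for HFC minus LFC. The 10 genes' median was again 0.30, which the design fixes, since each time point holds both diets. The authors' table was not run, since it holds only their own ratios to LFC. The cause of the changes below was not tested.

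For differences between time points over LFC and HFC, main counts of 1404 probes and 1 gene became 841 and 0 with no filter, 16562 and 9 with normexp and a 75th percentile shift, 2144 and 5 with normexp and quantile, and 587 and 0 with quantile normalisation. Probes well above background on every array gave 3 genes (6.08% of probes). Leaving out W9 and W12 gave 376 and 0, leaving out the 4 low arrays (chosen after seeing the data) 252 and 0, and leaving out each time point in turn from 33 (W9) to 6982 (W12) probes and 0 to 10 genes. For weeks 3 to 18, 13747 probes and 3 genes became 1594 and 6 with normexp and a 75th percentile shift, while normexp with quantile gave 6 genes (30.1% of probes) and quantile normalisation 5 (28.2%). Probes above background on every array gave 4185 probes, leaving out the 4 low arrays 5 genes, and leaving out each week 4845 (W6) to 12292 (W12) probes and 0 to 6 genes. At W12, HF5 was at least 2-fold above HFC for 0 genes under the 3 other scalings. With normexp and a 75th percentile shift HF5 was below for 9 (17.1% of probes), and HF20 was below for 4 (4.51%). At W6, Fosb alone was 2-fold higher in HFC than in LFC (10.2% of probes). With normexp and a 75th percentile shift 4 genes were (1.42%).

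None of the differences whose sign turned had passed a test. For HFC minus LFC, Junb turned to 0.85 with brightness as a covariate, 0.38 with normexp and quantile, 0.47 with quantile and 0.019 on its second probe. Nr4a1 turned to 1.24, 0.44 and 0.55 under the same 3 settings and 0.065 with normexp and a 75th percentile shift. Ier2 was at -0.060 on its dim probe. Without W9 and W12, and without the 4 low arrays, Egr1 was at -0.34, Egr2 at -0.073, Fos at -0.21, Ier2 at -0.27 and Jun at -0.053. Leaving out each time point gave -0.33 to 0.42 for Egr1, -0.099 to 0.75 for Fos, -0.19 to 0.35 for Ier2 and -0.67 to 0.078 for Nr4a1, lowest without W12 and highest without W18. For the mean of the doses minus HFC, normexp with a 75th percentile shift gave -0.055 for Dusp1, -0.024 for Ier2 and -0.13 for Jun. Scan day as the block gave -0.53 for Atf3, -0.43 for Dusp1, -0.040 for Egr1, -0.15 for Fos, -0.21 for Fosb, -0.29 for Ier2 and -0.30 for Jun. Without the 4 low arrays Atf3 was at -0.33, Dusp1 at -0.37, Fosb at -0.33, Ier2 at -0.10 and Jun at -0.036, and without W9 and W12 Atf3 was at -0.33, Dusp1 at -0.042, Fosb at -0.22 and Ier2 at -0.044. Leaving out each week gave -0.60 to 0.74 for Atf3, -0.44 to 0.75 for Dusp1, -0.17 to 1.1 for Egr1, -0.22 to 1.31 for Fos, -0.43 to 1.13 for Fosb, -0.28 to 0.69 for Ier2 and -0.19 to 0.54 for Jun, lowest without W9 and highest without W12.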
